A study of Homo sapiens with 17 samples.

Results

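The genes of glycolysis, the pentose phosphate pathway and pyruvate use were followed in Jurkat cells, an established human T cell acute lymphoblastic leukaemia line, under ILT3.Fc. They were chosen by name as 34 genes for glucose and lactate transport, glycolysis, the PFKFB enzymes, control of pyruvate dehydrogenase, the pentose phosphate pathway and the hypoxia factor HIF1A, of 25548 gene symbols in all. All 34 were in the table, none was listed at 0 in any library, and all 34 passed the filter of a mean of at least 1 FPKM (fragments per kilobase, scaled to each library). ILT3.Fc is a recombinant fusion of the outer domain of ILT3, an inhibitory receptor, with the Fc part of an antibody. Cells received 0, 12.5 or 25 µg/ml for 6, 12 or 24 h, and polyadenylated RNA was sequenced. Of the 9 groups, 8 had 2 libraries and the untreated 12 h group had 1. The labels name the untreated cells by a dose of 0 and no Fc control protein, and do not say whether duplicates were separate cultures, so the spread behind the p-values may be technical. Each group is 1 cell line.

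Glycolysis splits glucose into pyruvate through a chain of cytosolic enzymes, most of which exist as paralogs with different regulation. Pyruvate is then reduced to lactate by lactate dehydrogenase or enters mitochondria through pyruvate dehydrogenase, which the PDK kinases switch off, while the pentose phosphate pathway draws on glucose 6-phosphate for NADPH and ribose. Activated and leukaemic T cells are known for heavy use of glycolysis even with oxygen present, and HIF1A and MYC are known activators of many of these genes.

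Libraries had 11842 to 12016 genes at 1 FPKM or more, with relative depths of 0.69 to 1.0 of the deepest, and absolute depth is unknown. All 11 T cell markers listed had a mean of at least 1 FPKM, with summed levels of 1675 to 1835 FPKM at 25 µg/ml and 1683 to 1781 FPKM untreated, and 1 of the 11 passed the test at 25 against 0 µg/ml over all times. Of 5 B cell markers 1 had a mean of at least 1 FPKM, with the list summing to 38.1 to 41.3 FPKM at 25 µg/ml and 33.6 to 41.6 FPKM untreated, and of 5 NK markers 1 did, with 5.25 to 6.36 FPKM at 25 µg/ml and 3.87 to 7.63 FPKM untreated. No myeloid, erythroid or epithelial marker reached that mean. In bulk RNA, fewer cells of a type and less RNA per cell cannot be told apart. Deviations from the mean library followed GC content in replicate 2 of 25 µg/ml at 24 h (Spearman 0.56 over genes, which are not independent). They ran against it in replicate 2 of untreated cells at 24 h (-0.37), on the other side of the 24 h comparison. The other libraries ran from -0.33 to 0.32 with GC content. Deviations followed gene length most in replicate 1 of 12.5 µg/ml at 6 h (-0.60). Lane 4 held every 24 h library and the first replicates at 6 h, and lane 5 every 12 h library and the second replicates at 6 h. For the 24 h comparison at 25 against 0 µg/ml, values without replicate 2 of 25 µg/ml at 24 h are given beside the main ones.

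On the FPKM scale, which allows for gene length, the 34 genes together made up 1.60% to 1.71% of each library's summed FPKM. Means over the 17 libraries ran from 2293 FPKM for GAPDH, the glyceraldehyde 3-phosphate dehydrogenase, to 1.52 FPKM for SLC2A3, a high-affinity glucose transporter. LDHB averaged 1328 FPKM, ENO1 1093 FPKM, ALDOA 665 FPKM and LDHA 626 FPKM, so that GAPDH, lactate dehydrogenase, enolase and aldolase stood highest. In most families 1 paralog led, while hexokinase was near parity, with HK1 at 40.0% to 50.1%, and PDK2 held 45.1% to 54.2% of PDK FPKM. ALDOA held 98.5% to 99.1% of summed aldolase FPKM, PFKP 74.2% to 80.5% of phosphofructokinase, SLC2A1 92.0% to 94.8% of the pair of glucose transporters and LDHB 66.8% to 69.5% of lactate dehydrogenase. Reads of GAPDH, PGAM1, LDHA, TPI1 and ENO1 may be shared with processed pseudogenes (GENCODE v29 names 62 for GAPDH and 13 for PGAM1), so their levels are uncertain to that extent.

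Exposure to 25 µg/ml for 24 h was compared with untreated cells at 24 h. ALDOC, PFKFB4, PFKL and HK1, which encode an aldolase, a maker of the phosphofructokinase activator, a phosphofructokinase subunit and a hexokinase, rose, and PDK1 and LDHA, which limit pyruvate oxidation and make lactate, fell. Of the 34 genes, 11 changed, 9 rising and 2 falling (limma on log2(FPKM + 1), adjusted p under 0.05 by Benjamini-Hochberg over all 12015 genes tested). That is 32.4% of the genes, against 16.5% of all genes tested, with 10.7% of all genes rising and 5.76% falling. After bias with GC content and gene length was removed from each library, 8 rose and 4 fell, and 8.51% of all genes rose and 10.4% fell. With median centring 5 rose and 2 fell, against 6.31% and 8.19% of all genes. The median change was 0.083 on the log2 scale, against 0.036 over all genes tested, but -0.002 against 0.000 after that correction, 0.040 against 0.027 without replicate 2 of 25 µg/ml at 24 h and 0.040 against 0.032 at a mean of at least 5 FPKM. The excess of the median over that of all genes was thus smaller or absent under these settings. The 5 calls on ALDOC, PFKFB4, PFKL, HK1 and PDK1 were kept when any 1 library was left out, while the count was 5 without replicate 1 or replicate 2 of untreated cells at 24 h or without replicate 2 of 25 µg/ml at 24 h, where 8.81%, 4.02% and 5.01% of all genes were called. Without that last library the changes were 0.76 for ALDOC, 0.54 for PFKFB4, 0.44 for PFKL, 0.36 for HK1 and -0.37 for PDK1 (limma adjusted p = 0.00523, 0.0329, 0.00788, 0.0168 and 0.0122).

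The counts by role below come from few genes each and stand against 10.7% of all genes rising and 5.76% falling at 24 h. In glucose transport 1 of 2 genes rose and none fell. SLC2A3 had 1.24 and 1.34 FPKM untreated, 1.57 and 1.39 FPKM at 12.5 µg/ml and 1.89 and 1.86 FPKM at 25 µg/ml at 24 h. The 25 µg/ml libraries lay above all others at that time, and the log2 change was 0.33 (SE 0.080, limma adjusted p = 0.0195), which the added 1 FPKM understates at so low a level. At 6 h SLC2A3 had 1.600 and 1.396 FPKM untreated, 1.58 and 1.37 FPKM at 12.5 µg/ml and 1.62 and 1.63 FPKM at 25 µg/ml, and at 12 h 1.41 FPKM untreated, 1.38 and 1.499 FPKM at 12.5 µg/ml and 1.47 and 1.57 FPKM at 25 µg/ml. Without replicate 2 of 25 µg/ml at 24 h the change was 0.34 (adjusted p = 0.0802). SLC2A1, the main basal glucose transporter, differed by 0.08 (SE 0.065, adjusted p = 0.419). GENCODE v29 names 3 pseudogenes of SLC2A3.

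Of the 6 genes for hexokinase, the isomerase and phosphofructokinase, 2 rose and none fell. PFKL, the liver-type subunit of the phosphofructokinase that commits glucose to glycolysis, had 26.6 and 23.6 FPKM untreated, 30.3 and 29.01 FPKM at 12.5 µg/ml and 34.2 and 37.5 FPKM at 25 µg/ml at 24 h. All 3 doses were separate and ordered. PFKL has a GC content of 64.1%. The change was 0.50 (SE 0.059, limma adjusted p = 0.000611), and 0.34 after each library was corrected for GC content and gene length (adjusted p = 0.000555). At 6 h PFKL had 27.1 and 26.6 FPKM untreated, 29.1 and 28.03 FPKM at 12.5 µg/ml and 26.04 and 26.2 FPKM at 25 µg/ml, and at 12 h 25.7 FPKM untreated, 24.7 and 25.9 FPKM at 12.5 µg/ml and 26.9 and 25.96 FPKM at 25 µg/ml. PFKL was nearly flat at these earlier times. PFKP, the platelet-type subunit that dominates these cells, differed by 0.05 (adjusted p = 0.509). PFKM, the muscle-type subunit, differed by 0.33 but with a wide error (SE 0.11, adjusted p = 0.0580).

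HK1, the hexokinase that traps glucose as glucose 6-phosphate in most tissues, had 15.7 and 15.5 FPKM untreated, 18.5 and 16.5 FPKM at 12.5 µg/ml and 20.4 and 19.6 FPKM at 25 µg/ml at 24 h. The 25 µg/ml libraries were the highest of all 17. The change was 0.34 (SE 0.053, limma adjusted p = 0.00293). At 6 h HK1 had 16.8 and 16.00 FPKM untreated, 16.1 and 16.8 FPKM at 12.5 µg/ml and 15.5 and 15.6 FPKM at 25 µg/ml, and at 12 h 15.5 FPKM untreated, 16.3 and 17.1 FPKM at 12.5 µg/ml and 17.02 and 16.9 FPKM at 25 µg/ml. HK2, the inducible hexokinase, differed by -0.01 (SE 0.042, adjusted p = 0.924). GPI, which turns glucose 6-phosphate into fructose 6-phosphate, differed by 0.08 (adjusted p = 0.265).

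The PFKFB enzymes make and remove fructose 2,6-bisphosphate, the strongest activator of phosphofructokinase, and 2 of 3 rose. PFKFB4 had 1.36 and 1.300 FPKM untreated, 1.61 and 1.68 FPKM at 12.5 µg/ml and 2.396 and 2.43 FPKM at 25 µg/ml at 24 h. Both 25 µg/ml values were the highest of the 17 libraries. The change was 0.55 (SE 0.095, limma adjusted p = 0.00421), again understated by the added 1 FPKM. At 6 h PFKFB4 had 1.43 and 1.57 FPKM untreated, 1.79 and 1.62 FPKM at 12.5 µg/ml and 2.08 and 1.69 FPKM at 25 µg/ml, and at 12 h 1.38 FPKM untreated, 1.06 and 1.42 FPKM at 12.5 µg/ml and 1.67 and 1.76 FPKM at 25 µg/ml. PFKFB4 shares exon sequence with UCN2 on the same strand in GENCODE v29, so its reads could include UCN2 reads.

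PFKFB3, the form with the strongest bias towards making the activator, had 9.29 and 8.91 FPKM untreated, 9.98 and 10.2 FPKM at 12.5 µg/ml and 10.1 and 10.7 FPKM at 25 µg/ml at 24 h. It changed by 0.18 (SE 0.046, limma adjusted p = 0.0262), but by 0.07 after correction for GC content and length (adjusted p = 0.285) and by 0.13 without replicate 2 of 25 µg/ml at 24 h (adjusted p = 0.177). At 6 h PFKFB3 had 10.1 and 10.5 FPKM untreated, 10.3 and 10.1 FPKM at 12.5 µg/ml and 10.1 and 9.73 FPKM at 25 µg/ml, and at 12 h 9.28 FPKM untreated, 9.62 and 9.81 FPKM at 12.5 µg/ml and 10.2 and 9.92 FPKM at 25 µg/ml. PFKFB2, the heart-type form, had 5.25 and 5.39 FPKM untreated, 5.42 and 5.65 FPKM at 12.5 µg/ml and 5.74 and 5.72 FPKM at 25 µg/ml at 24 h, a difference of 0.09 (adjusted p = 0.259). At 6 h PFKFB2 had 5.83 and 5.500 FPKM untreated, 5.01 and 5.38 FPKM at 12.5 µg/ml and 6.45 and 6.13 FPKM at 25 µg/ml, and at 12 h 5.31 FPKM untreated, 5.71 and 5.67 FPKM at 12.5 µg/ml and 6.02 and 6.01 FPKM at 25 µg/ml. PFKFB2 stood higher at 25 µg/ml than untreated at each time, by the least at 24 h.

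Of the 8 genes from aldolase to enolase, 1 rose and none fell, a rising share near that of all genes (10.7%). ALDOC, the aldolase best known from brain, had 6.09 and 5.85 FPKM untreated, 7.48 and 7.56 FPKM at 12.5 µg/ml and 10.8 and 12.2 FPKM at 25 µg/ml at 24 h. The untreated values were the lowest of the 17 libraries and the 25 µg/ml values the highest. The change was 0.84 (SE 0.084, limma adjusted p = 0.000305), the largest of the 34 genes at 24 h. At 6 h ALDOC had 7.56 and 7.22 FPKM untreated, 9.64 and 7.99 FPKM at 12.5 µg/ml and 8.93 and 8.08 FPKM at 25 µg/ml, and at 12 h 7.52 FPKM untreated, 7.898 and 7.22 FPKM at 12.5 µg/ml and 7.97 and 8.28 FPKM at 25 µg/ml. ALDOC overlaps an antisense transcript in GENCODE v29, as does PDK1, and PFKFB2, PDHA1 and PGLS overlap other genes on the opposite strand. Whether counting used strand is not given in the sources used here.

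The other 7 genes from aldolase to enolase did not pass. ALDOA, the main aldolase, differed by 0.16 (SE 0.057, limma adjusted p = 0.0733) and ENO2, the neuronal enolase, by 0.16 (SE 0.059, adjusted p = 0.0846). TPI1, GAPDH, PGK1, PGAM1 and ENO1, which carry triose phosphate to phosphoenolpyruvate, differed by -0.08 to 0.03. After correction for GC content and gene length, GAPDH was at -0.17 (adjusted p = 0.0175) and PGAM1 at -0.12 (adjusted p = 0.0272), both past the threshold, and ENO1 at -0.10 (adjusted p = 0.0633).

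Of 4 genes for lactate dehydrogenase and monocarboxylate transport, 1 fell and none rose. LDHA, the subunit that favours making lactate, had 645 and 649.8 FPKM untreated, 630.4 and 614 FPKM at 12.5 µg/ml and 586 and 553 FPKM at 25 µg/ml at 24 h, lower with each dose and with no overlap. The change was -0.19 (SE 0.047, limma adjusted p = 0.0232), and -0.14 without replicate 2 of 25 µg/ml at 24 h. LDHA lost its call in 3 of 17 fits that left out 1 library. These left out replicate 1 or 2 of untreated cells or replicate 2 of 25 µg/ml, all at 24 h. The call was also lost in lane 4 alone and without the 12 h libraries. At 6 h LDHA had 619 and 629 FPKM untreated, 680.2 and 623 FPKM at 12.5 µg/ml and 627 and 608 FPKM at 25 µg/ml, and at 12 h 654 FPKM untreated, 627 and 635 FPKM at 12.5 µg/ml and 627 and 627 FPKM at 25 µg/ml. LDHB differed by -0.04 (adjusted p = 0.668). The lactate carriers SLC16A1 and SLC16A3 differed by -0.01 and 0.10 (adjusted p = 0.956 and 0.680).

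Among pyruvate dehydrogenase and its kinases, 1 of 5 genes rose and 1 fell. PDK1, a kinase that switches pyruvate dehydrogenase off and a known hypoxia target, had 6.48 and 6.86 FPKM untreated, 5.47 and 5.37 FPKM at 12.5 µg/ml and 4.95 and 4.76 FPKM at 25 µg/ml at 24 h. The untreated values were the highest of all 17 libraries and the 25 µg/ml values the lowest. The change was -0.39 (SE 0.051, limma adjusted p = 0.00105). At 6 h PDK1 had 5.99 and 6.14 FPKM untreated, 5.66 and 5.82 FPKM at 12.5 µg/ml and 6.09 and 6.197 FPKM at 25 µg/ml, and at 12 h 5.91 FPKM untreated, 5.67 and 5.33 FPKM at 12.5 µg/ml and 5.25 and 5.06 FPKM at 25 µg/ml. PDK1 differed by 0.02 at 6 h, and at 12 h both 25 µg/ml libraries lay below the untreated one, a difference of -0.17 that did not pass (adjusted p = 0.481). PDK2 was at 0.18 (adjusted p = 0.0928) and PDK3 at -0.05 (adjusted p = 0.783).

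PDHA1, the catalytic alpha subunit of pyruvate dehydrogenase, had 32.4 and 31.6 FPKM untreated, 34.97 and 33.9 FPKM at 12.5 µg/ml and 35.5 and 34.95 FPKM at 25 µg/ml at 24 h. Both 25 µg/ml libraries lay above both untreated ones. It rose by 0.13 (SE 0.041, limma adjusted p = 0.0470), a call lost in 14 of 17 fits that left out 1 library, with a highest adjusted p of 0.229. At 6 h PDHA1 had 32.8 and 31.7 FPKM untreated, 34.7 and 32.7 FPKM at 12.5 µg/ml and 32.99 and 33.6 FPKM at 25 µg/ml, and at 12 h 31.5 FPKM untreated, 32.4 and 34.3 FPKM at 12.5 µg/ml and 33.1 and 33.4 FPKM at 25 µg/ml. PDHB, the beta subunit, was at -0.02 (adjusted p = 0.804).

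In the pentose phosphate pathway 2 of 5 genes rose and none fell. TALDO1, transaldolase of the non-oxidative branch, had 175 and 169.9 FPKM untreated, 188 and 183 FPKM at 12.5 µg/ml and 201 and 196 FPKM at 25 µg/ml at 24 h and changed by 0.20 (SE 0.061, limma adjusted p = 0.0453). At 6 h TALDO1 had 163 and 168 FPKM untreated, 189 and 161 FPKM at 12.5 µg/ml and 162 and 152 FPKM at 25 µg/ml, and at 12 h 163 FPKM untreated, 164 and 162 FPKM at 12.5 µg/ml and 164 and 168 FPKM at 25 µg/ml. PGLS, the lactonase of the oxidative branch, had 56.5 and 52.8 FPKM untreated, 57.1 and 53.4 FPKM at 12.5 µg/ml and 62.5 and 71.3 FPKM at 25 µg/ml at 24 h and changed by 0.28 (SE 0.082, adjusted p = 0.0386). At 6 h PGLS had 53.5 and 54.9 FPKM untreated, 62.03 and 54.5 FPKM at 12.5 µg/ml and 51.1 and 44.5 FPKM at 25 µg/ml, and at 12 h 50.7 FPKM untreated, 51.3 and 48.8 FPKM at 12.5 µg/ml and 48.03 and 49.5 FPKM at 25 µg/ml. TALDO1 lost its call in 14 of 17 fits that left out 1 library (highest adjusted p of 0.215) and PGLS in 9 of 17 (0.272). PGLS has a GC content of 61.6% and stood highest in replicate 2 of 25 µg/ml at 24 h; the correction put it at 0.16 (adjusted p = 0.0458). PGD, the enzyme that releases ribulose 5-phosphate, was at 0.16 (adjusted p = 0.0669), TKT, transketolase, at 0.03 and RPIA, the ribose 5-phosphate isomerase, at 0.03.

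HIF1A, the oxygen-regulated subunit of hypoxia-inducible factor 1, is controlled mainly through its protein. Its transcript had 32.6 and 34.4 FPKM untreated, 31.2 and 33.6 FPKM at 12.5 µg/ml and 32.3 and 30.3 FPKM at 25 µg/ml at 24 h, a difference of -0.10 (SE 0.059, limma adjusted p = 0.289). At 6 h HIF1A had 31.1 and 31.5 FPKM untreated, 28.2 and 31.5 FPKM at 12.5 µg/ml and 30.9 and 32.9 FPKM at 25 µg/ml, and at 12 h 31.98 FPKM untreated, 32.7 and 31.6 FPKM at 12.5 µg/ml and 31.8 and 31.5 FPKM at 25 µg/ml. Over all 17 libraries HIF1A ranged from 28.2 to 34.4 FPKM.

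**Figure D1:**
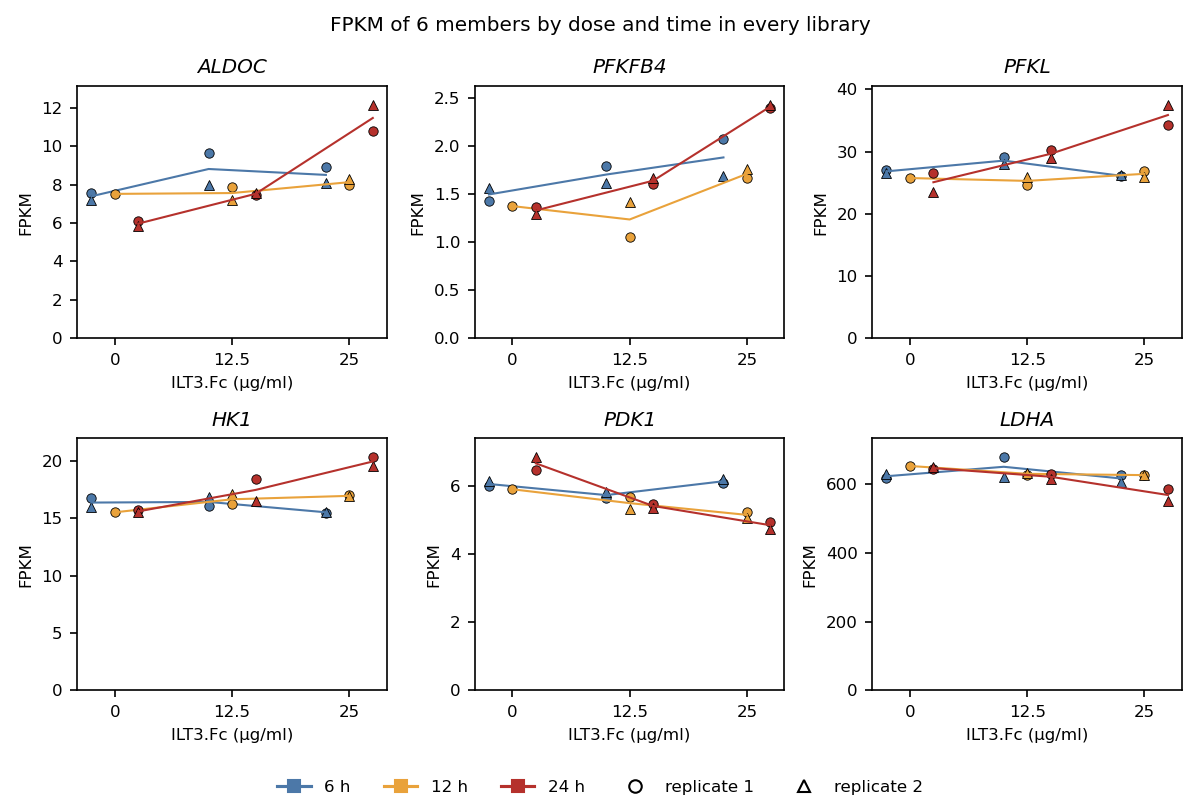
FPKM (vertical axis, from 0) of 6 genes against the dose of ILT3.Fc, with each library a point (set slightly apart by time), lines through group means, and colours for 6, 12 and 24 h. ALDOC, PFKFB4, PFKL and HK1 were highest in the 24 h libraries at 25 µg/ml, and PDK1 and LDHA lowest there.

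Promoter letters are shown for genes that moved in opposite directions. RefSeq promoters (GRCh38.p14) were matched by symbol for 31 of the 34 genes and none for SLC2A3, PFKFB2 and SLC16A1. For each of the 31 only the first listed start was used. The 250 bases before the start were searched on both strands for ACGTG, the core of the hypoxia response element, and for CACGTG, the E-box that MYC can bind, which itself holds the first motif. The core ACGTG stood in 11 of the 31 (35.5%), against 18.5% of 35116 promoters, and CACGTG in 4 (12.9%), against 6.34%. The 35116 are all listed promoters, with no filter on expression or to the first start of a gene, so these shares compare unlike sets. The windows below are ALDOC (chr17:28576896-28577145 on the minus strand) and PFKFB4 (chr3:48556804-48557053 on the minus strand), which rose, and LDHA (chr11:18394313-18394562 on the plus strand) and PDK1 (chr2:172555123-172555372 on the plus strand), which fell, with ACGTG or its reverse complement CACGT in capitals.
ALDOC: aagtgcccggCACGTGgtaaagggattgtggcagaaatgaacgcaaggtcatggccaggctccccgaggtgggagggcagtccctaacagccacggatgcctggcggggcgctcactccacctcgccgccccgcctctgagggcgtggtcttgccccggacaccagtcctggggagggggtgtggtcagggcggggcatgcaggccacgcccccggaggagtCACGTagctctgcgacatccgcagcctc
PFKFB4: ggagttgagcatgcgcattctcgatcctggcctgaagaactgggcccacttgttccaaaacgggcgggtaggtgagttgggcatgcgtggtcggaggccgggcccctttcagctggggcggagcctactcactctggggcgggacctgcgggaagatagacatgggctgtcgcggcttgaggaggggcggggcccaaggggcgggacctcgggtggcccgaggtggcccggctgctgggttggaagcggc
LDHA: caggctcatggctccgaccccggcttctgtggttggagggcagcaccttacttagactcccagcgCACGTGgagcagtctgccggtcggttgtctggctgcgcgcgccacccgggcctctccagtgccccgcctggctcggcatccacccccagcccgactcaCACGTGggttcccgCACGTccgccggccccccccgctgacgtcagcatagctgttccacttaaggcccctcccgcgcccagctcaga
PDK1: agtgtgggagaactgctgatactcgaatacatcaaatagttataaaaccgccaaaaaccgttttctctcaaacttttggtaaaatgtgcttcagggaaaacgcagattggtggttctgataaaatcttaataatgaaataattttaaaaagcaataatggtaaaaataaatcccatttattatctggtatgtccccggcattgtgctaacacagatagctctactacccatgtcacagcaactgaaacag
ALDOC, which rose, and LDHA, which fell, both hold the letters, and PFKFB4, which rose, and PDK1, which fell, hold none in these windows. Over the 31 promoters, ACGTG stood in 1 of 8 genes that rose at 24 h, 1 of 2 that fell and 9 of 21 that did not pass. The 4 windows were chosen after values were seen, and a match is no shown binding site.

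The shorter exposures asked when the changes were present. At 6 h none of the 34 genes changed at 25 against 0 µg/ml (0.00%, against 0.225% of all genes, of which 0.0583% rose and 0.166% fell, and 1 gene with an unadjusted limma p under 0.05). At 12 h none changed either (0.00%, against 0.0499%, of which 0.0333% rose and 0.0166% fell, and 2 genes with an unadjusted p under 0.05), where the single untreated library was assumed to vary like the other groups. ALDOC was at 0.18 at 6 h and 0.10 at 12 h, PFKFB4 at 0.20 and 0.19, PFKL at -0.04 and 0.04, HK1 at -0.07 and 0.12, and PDK1 at 0.02 and -0.17.

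**Figure D2:**
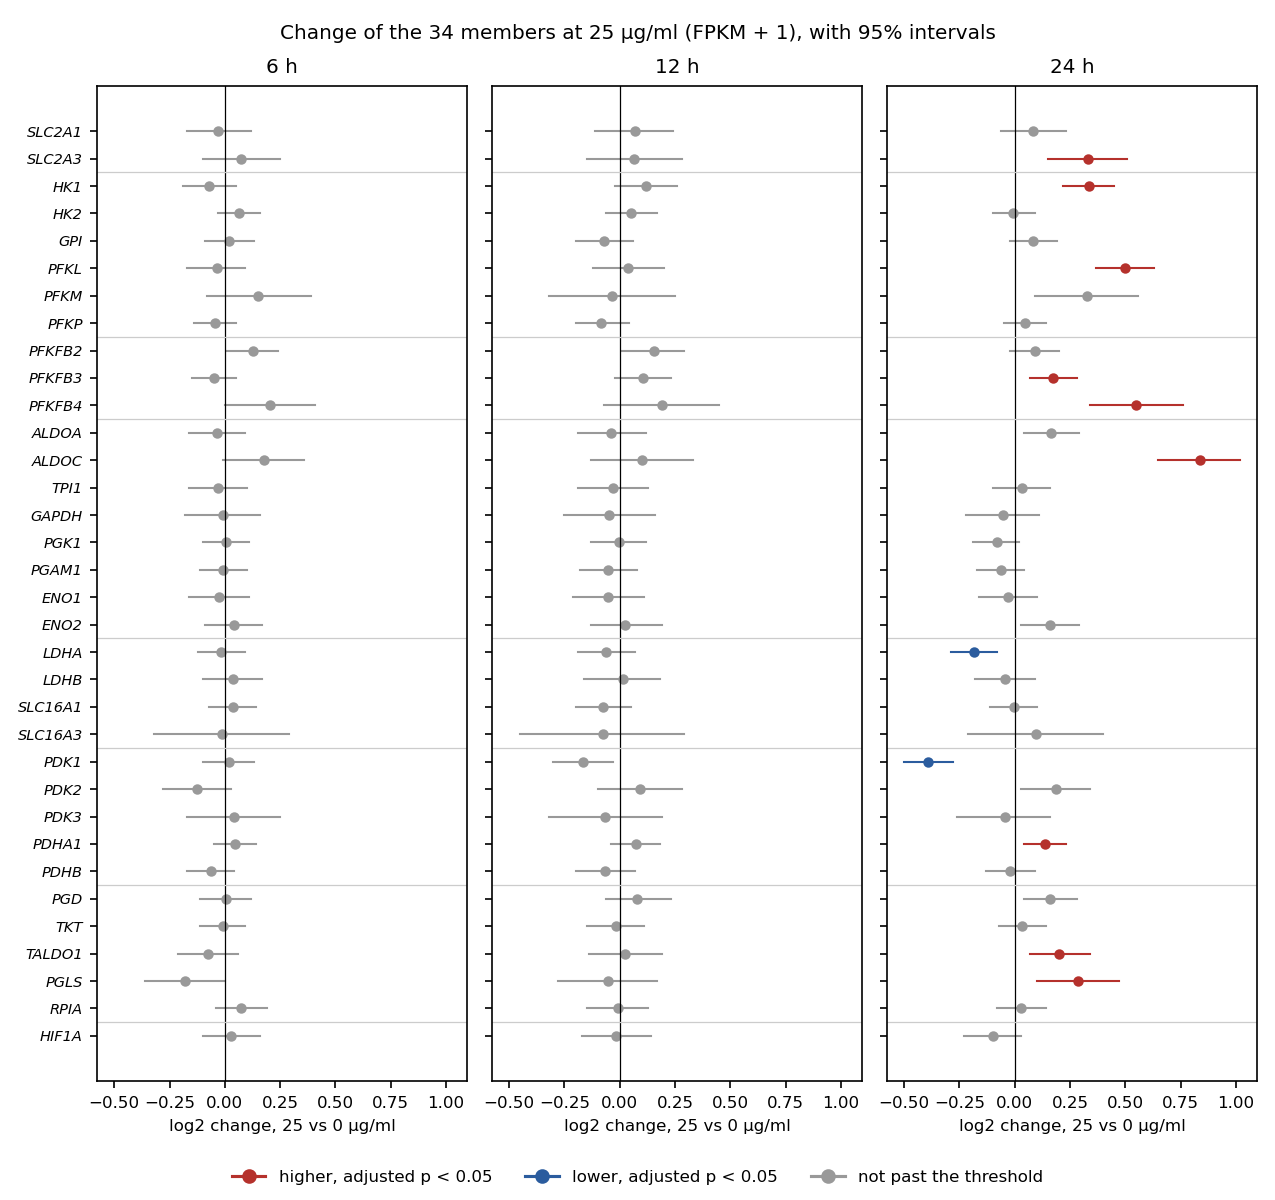
Change at 25 against 0 µg/ml on the log2(FPKM + 1) scale for the 34 genes at 6, 12 and 24 h, with points for estimates, bars for 95% intervals, and horizontal lines between role groups. Coloured points, present at 24 h and at no earlier time, passed an adjusted p of 0.05: 9 higher in red and 2 lower in blue.

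The difference between the 24 h and the 6 h effect was itself tested. It passed for 4 of the 34 genes, 11.8% against 3.30% of all genes. Of these, 3 were higher and 1 lower, against 2.35% and 0.949% of all genes. The effect at 24 h exceeded that at 6 h by 0.66 for ALDOC (SE 0.12, limma adjusted p = 0.0185), by 0.54 for PFKL (SE 0.083, adjusted p = 0.0163) and by 0.41 for HK1 (SE 0.075, adjusted p = 0.0212), and the difference for PDK1 was -0.41 (SE 0.072, adjusted p = 0.0181). The calls depended on single libraries more than the sizes did. Leaving out replicate 2 of 25 or 0 µg/ml at 24 h, replicate 1 or 2 of 0 µg/ml at 6 h or replicate 2 of 25 µg/ml at 6 h left 0 calls, with 0.0416% to 0.275% of all genes called, and replicate 1 of 25 µg/ml at 6 h left 1 (0.549%), while leaving out replicate 1 or 2 of 12.5 µg/ml at 6 h gave 9 (9.67% and 9.66%). Over the 17 fits that left out 1 library, ALDOC ran from 0.58 to 0.74, PFKL from 0.45 to 0.62, HK1 from 0.37 to 0.44 and PDK1 from -0.44 to -0.37. PDK1 was at -0.30 after correction for GC content and length (adjusted p = 0.187). Lane 4 alone, and the fit without the 12 h libraries, also left 0 calls (0.108% and 0.0832% of all genes).

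Over all 3 times together, 6 of the 34 genes changed at 25 against 0 µg/ml (17.6%, against 9.47% of all genes), 5 rising and 1 falling (5.47% and 4.0% of all genes). ALDOC rose by 0.37 (SE 0.052, limma adjusted p = 0.00205), PFKFB4 by 0.32 (SE 0.059, adjusted p = 0.00868), PFKL by 0.17 (SE 0.037, adjusted p = 0.0188), HK1 by 0.13 (SE 0.033, adjusted p = 0.0358) and PFKFB2 by 0.12 (SE 0.032, adjusted p = 0.0358). PDK1 fell by 0.18 (SE 0.032, adjusted p = 0.00662). Without the 24 h libraries 0 of the 34 changed, in a fit that called 0.383% of all genes. Without replicate 2 of untreated cells at 6 h, or replicate 1 of 25 µg/ml at 12 h, the count was 3, which were PFKFB4, ALDOC and PDK1, with 5.10% and 5.73% of all genes called. PFKFB2 lost its call in 13 of 17 fits that left out 1 library and HK1 in 10 of 17. Lane 4 held no 12 h library and lane 5 no 24 h library, and each held 1 library per dose at 6 h. A lane alone therefore gives the mean of its own times, which is not the same comparison. Within lane 4 alone and lane 5 alone 0 changed, where 0.350% and 0.0666% of all genes were called.

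The lower dose was compared next. None of the 34 genes changed at 12.5 against 0 µg/ml over all times (0.00%, against 0.283% of all genes, with 0.166% rising and 0.117% falling; 5 had an unadjusted limma p under 0.05), and 26 of 34 were above 0, with a median of 0.035 against 0.005 for all genes. Leaving out replicate 1 of 12.5 µg/ml at 6 h, which stands apart, gave a median of 0.006 against 0.005 for all genes, and leaving out replicate 2 of that group gave 5 calls, with 7.45% of all genes called. At 24 h none changed at 12.5 against 0 µg/ml (0.00%, against 0.117%, with 0.0250% rising and 0.0916% falling; 6 had an unadjusted p under 0.05). The differences at 24 h were 0.29 for ALDOC (SE 0.084, adjusted p = 0.269), 0.23 for PFKL (SE 0.059, adjusted p = 0.189), 0.15 for HK1 (SE 0.053, adjusted p = 0.373) and -0.26 for PDK1 (SE 0.051, adjusted p = 0.119). Each had the sign of its change at 25 µg/ml, which shares the untreated libraries. Between 25 and 12.5 µg/ml over all times none passed (0.00%, against 0.283%, with 0.0666% rising and 0.216% falling; 5 had an unadjusted p under 0.05), with 1 call when replicate 1 of 12.5 µg/ml at 6 h was left out (0.491% of all genes) and 5 when replicate 2 was (12.3%).

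In the order of doses at 24 h, the libraries of 9 of the 34 genes rose through 0, 12.5 and 25 µg/ml without overlap (26.5%, against 10.9% of all genes tested). These were SLC2A3, HK1, PFKL, PFKM, PFKFB2, PFKFB4, ALDOC, PGD and TALDO1. LDHA and PDK1 fell without overlap (5.88%, against 6.85%), a share near that of all genes. Both 25 µg/ml libraries lay above both untreated ones for 17 genes (50.0%, against 37.5%) and below them for 6 (17.6%, against 23.1%). Without replicate 2 of 25 µg/ml at 24 h, which leaves 1 library that can be ordered more easily, these counts were 11 rising in order (32.4%, against 14.2%), 2 falling in order (5.88%, against 9.25%), 18 above (52.9%, against 47.5%) and 10 below (29.4%, against 32.5%).

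Ratios between paralogs within each library cancel library scale, though not bias with GC content or length, and were added after the values had been seen. For 12 pairs the mean log2 ratio over times was compared between 25 and 0 µg/ml by an exact two-sided permutation test within times, whose 108 arrangements allow a smallest p of 0.00926. The ALDOC to ALDOA ratio was 0.0145 and 0.0155 at 25 µg/ml and 0.00868 and 0.00880 in untreated cells at 24 h. PFKFB4 to PFKFB3 was 0.238 and 0.227 at 25 µg/ml and 0.147 and 0.146 untreated, and PFKL to PFKP 0.318 and 0.329 at 25 µg/ml and 0.239 and 0.228 untreated. In these 3 pairs the ratio of the less abundant paralog was higher at 25 µg/ml at 24 h. At 6 h ALDOC to ALDOA was 0.0145 and 0.0135 at 25 µg/ml and 0.0123 and 0.0115 untreated. From 6 to 24 h the ALDOC to ALDOA ratio thus fell in untreated cells and changed little at 25 µg/ml. LDHA to LDHB was 0.442 and 0.438 at 25 µg/ml and 0.482 and 0.488 untreated, a shift towards LDHB.

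Numerators called at 24 h, such as ALDOC, PFKFB4, PFKL and LDHA, rest on the same libraries, so their ratio p-values are not separate evidence. Over all times the ratio at 25 µg/ml differed by 0.39 for ALDOC to ALDOA, 0.41 for PFKFB4 to PFKFB3, 0.20 for PFKL to PFKP and -0.09 for LDHA to LDHB on the log2 scale, each at the smallest exact permutation p of 0.00926 (0.0278 adjusted over the 12 pairs). Without replicate 2 of 25 µg/ml at 24 h they were 0.37, 0.42, 0.19 and -0.09, each at the smallest p that the remaining 54 arrangements allow (exact permutation p = 0.0185, adjusted 0.0556). ENO2 to ENO1 was at 0.11 (exact permutation p = 0.0278, adjusted 0.0667), and SLC2A3 to SLC2A1 at 0.22 (exact permutation p = 0.0556, adjusted 0.0952). HK1 to HK2 was at 0.10 (exact permutation p = 0.25) and PDK1 to PDK2 at -0.26 (exact permutation p = 0.120). HK1 held 50.1% and 48.7% of hexokinase FPKM at 25 µg/ml at 24 h and 43.5% and 42.9% in untreated cells, while at 6 h the log2 ratio of HK1 to HK2 differed by -0.14. PDK1 held 18.4% and 17.5% of PDK FPKM at 25 µg/ml and 23.8% and 25.2% in untreated cells at 24 h.

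**Figure D3:**
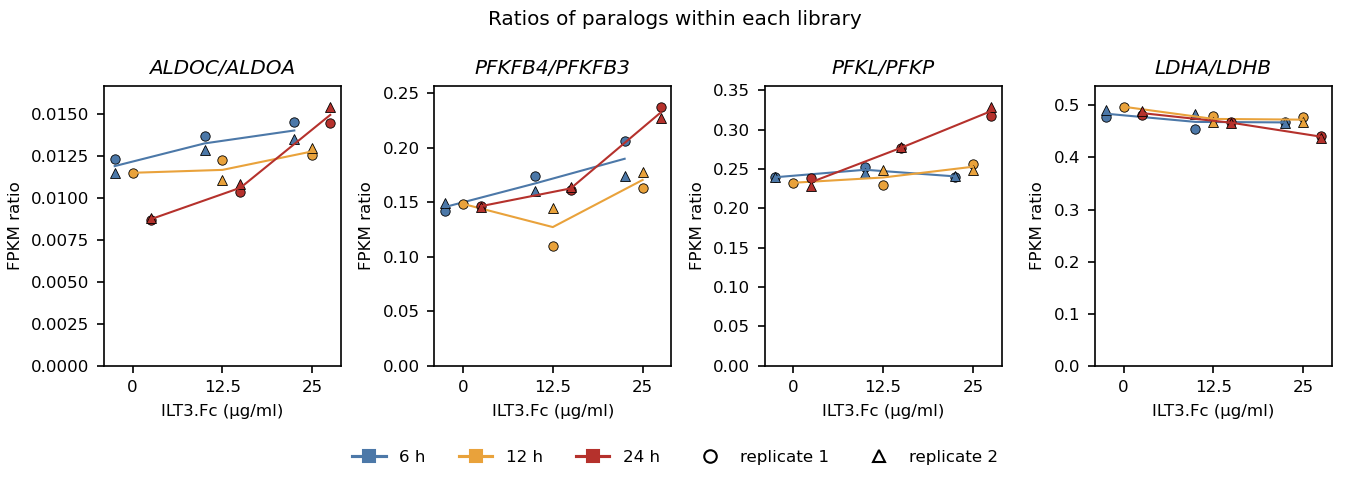
Ratio of FPKM between paralogs (vertical axis, from 0) against the dose of ILT3.Fc in each library (points set slightly apart by time), with lines through group means and colours for 6, 12 and 24 h. The 24 h ratios were higher at 25 µg/ml than untreated in the first 3 pairs and lower in LDHA to LDHB.

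Time in culture was compared next, at 24 against 6 h. Over the mean of the 3 doses 9 of the 34 genes changed (26.5%, against 25.2% of all genes), a share near that of all genes, with 8 rising and 1 falling (11.8% and 13.4% of all genes). TKT rose by 0.21 (SE 0.027, limma adjusted p = 0.000446), GPI by 0.17 (SE 0.028, adjusted p = 0.00158), ALDOA by 0.19 (SE 0.033, adjusted p = 0.00234) and TALDO1 by 0.16 (SE 0.035, adjusted p = 0.00776). PDK3, TPI1, PFKL and HK1 rose by 0.12 to 0.19, and HK2 fell by 0.09 (SE 0.024, adjusted p = 0.0161). All 24 h libraries and 1 of 2 in each 6 h group shared lane 4; within that lane 4 genes changed (11.8%, against 13.5% of all genes), and without replicate 1 of 12.5 µg/ml at 6 h 14 did (30.3% of all genes). At 12 against 6 h none passed (0.00%, against 3.03%, with 1.16% rising and 1.87% falling; 4 had an unadjusted p under 0.05).

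Among cells at 25 µg/ml, 13 of the 34 changed from 6 to 24 h (38.2%, against 19.1% of all genes), 11 rising and 2 falling (11.8% and 7.32% of all genes). PGLS rose by 0.48 (SE 0.082, limma adjusted p = 0.00374), PFKL by 0.44 (SE 0.059, adjusted p = 0.00115), ALDOC by 0.39 (SE 0.084, adjusted p = 0.00947) and HK1 by 0.34 (SE 0.053, adjusted p = 0.00224). ALDOA and TALDO1 rose by 0.34 each, PDK2 by 0.28, TKT by 0.25, GPI by 0.22, TPI1 by 0.19 and PGD by 0.18. PDK1 fell by 0.29 (SE 0.051, adjusted p = 0.00409) and HK2 by 0.17 (SE 0.042, adjusted p = 0.0204). The count was 7 without replicate 2 of 25 µg/ml at 24 h or without replicate 2 of 25 µg/ml at 6 h (7.63% and 6.12% of all genes), and 0 in lane 4 alone (0.624%).

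In untreated cells, 1 of the 34 changed from 6 to 24 h and rose (2.94%, against 2.33% of all genes, with 0.558% rising and 1.77% falling). TKT rose by 0.21 (SE 0.047, limma adjusted p = 0.0473). The share of all genes called also moved when 1 library was left out, so the counts that follow are no result about TKT alone. The count was 0 in 12 of the 17 fits that left out 1 library and 3 without replicate 1 or replicate 2 of 12.5 µg/ml at 6 h (6.63% and 6.62% of all genes). ALDOC was at -0.27 (SE 0.084, adjusted p = 0.114), PDK1 at 0.12 (SE 0.051, adjusted p = 0.242), PFKL at -0.10 (adjusted p = 0.426) and HK1 at -0.06 (adjusted p = 0.573). For these 4 genes the estimates in untreated cells and at 25 µg/ml had opposite signs. For GPI, ALDOA and TKT they had 1 sign, with 0.16, 0.14 and 0.21 in untreated cells.

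**Figure D4:**
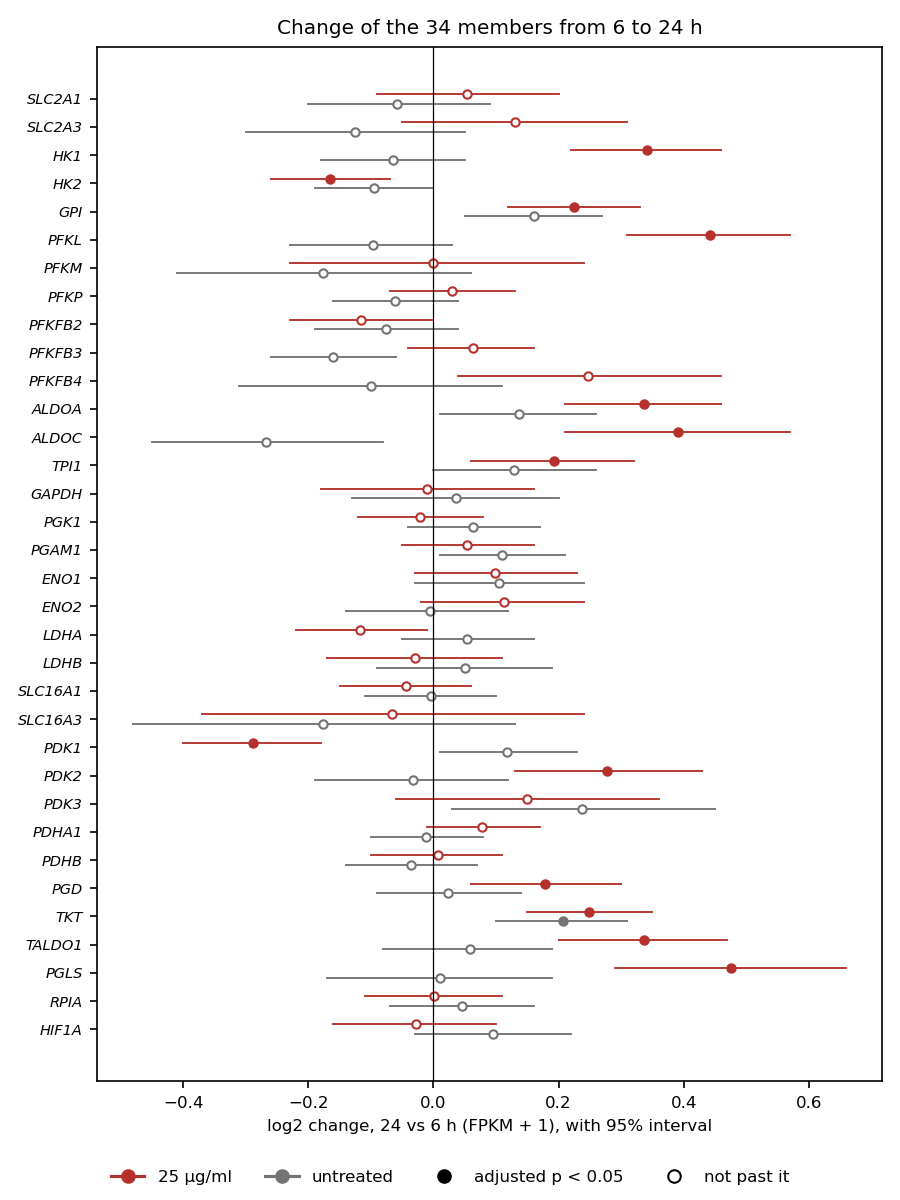
Change at 24 against 6 h on the log2(FPKM + 1) scale for the 34 genes, at 25 µg/ml in red above untreated cells in grey, with bars for 95% intervals and filled points past an adjusted p of 0.05. Filled points number 13 at 25 µg/ml and 1, for TKT, in untreated cells.

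The other genes around these pathways were read from the same fit. At 25 against 0 µg/ml over all times, 2 of 17 tested genes for other glycolytic and glucose-entry steps rose and none fell (5.47% and 4.0% of all genes): GPD1L, a glycerol 3-phosphate dehydrogenase-like gene, by 0.21 (SE 0.035, limma adjusted p = 0.00517) and PGM1, a phosphoglucomutase, by 0.12 (SE 0.030, adjusted p = 0.0348). Of 13 other pyruvate and lactate genes none passed, and the median was -0.035 against 0.015 over all genes. Of 9 other pentose phosphate genes 1 fell, PRPS2, which makes phosphoribosyl pyrophosphate, by 0.14 (SE 0.023, adjusted p = 0.00414). At 24 h alone 5 of the 17 rose and none fell, 1 of the 13 fell and none rose, and of the 9, 1 rose and 1 fell, against 10.7% of all genes rising and 5.76% falling.

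Of 21 TCA cycle genes, 2 rose and none fell over all times, among them the cytosolic aconitase ACO1, by 0.14 (SE 0.028, limma adjusted p = 0.0142). At 24 h 7 of the 21 rose and none fell, against 10.7% and 5.76% of all genes, with a median of 0.068 against 0.036 over all genes. Of 21 hypoxia response genes outside glycolysis, 1 rose and 1 fell over all times, again a share called near that of all genes (9.47%). The one that rose was INSIG2, which holds the sterol sensor in the endoplasmic reticulum, by 0.12 (SE 0.031, adjusted p = 0.0330). At 24 h none of the 21 rose and 2 fell, against 10.7% and 5.76% of all genes, with a median of 0.037 against 0.036.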

How the data were processed

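RNA from 17 libraries of Jurkat cells was sequenced after poly-A enrichment, per the labels' protocols. The authors deposited 1 table of FPKM values with a column per library. TopHat2 2.1.0 is named in the submitters' processing notes; no source used here gives the quantifier, build or annotation. FPKM keeps no read counts, so no count test was run. The table has 25593 lines for 25548 symbols; for 45 repeats the highest line was kept.

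The 12015 genes with a mean of at least 1 FPKM were fitted on log2(FPKM + 1) with limma 3.58.1 in R 4.3.3, with 1 mean for each of 9 groups, a variance trend, 8 residual degrees of freedom and 3 prior ones. Tests were two-sided, adjusted by Benjamini-Hochberg over all 12015 genes, and called under 0.05. Fold changes on this scale understate changes of low genes. The calling step was tested on simulated data.

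GENCODE v29 gave GC content and length by symbol for 92.6% of the genes tested and all 34 members. For the correction, loess fits (span 0.3) of a library's deviation to GC content and then to length were removed. Further alternatives used a pseudocount of 0.1, no filter or one of 5, median centring, quantile normalization, no trend, lane or replicate number as a term, 1 lane, or fewer libraries or times.

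The members, the lists and the tests were chosen with earlier results of these data known. Values in every library are given for members called at 25 against 0 µg/ml and for HIF1A. Paralog ratios were added after the values had been seen. Some counted genes are not reported here by name.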

Additional observations from a re-analysis of the deposited data

Results flagged for a closer look

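For 4 of the 34 genes the effect of 25 against 0 µg/ml differed between 24 and 6 h in the limma fit over all genes. The difference was 0.66 on the log2 scale for ALDOC (adjusted p = 0.0185), 0.54 for PFKL (adjusted p = 0.0163), 0.41 for HK1 (adjusted p = 0.0212) and -0.41 for PDK1 (adjusted p = 0.0181). In each of these genes both 24 h libraries at 25 µg/ml lay outside the range of both untreated 24 h libraries. Among all genes tested both lay above in 37.5% and below in 23.1%, so this adds little to the calls. Replicate 2 of 25 µg/ml at 24 h, whose deviations followed GC content, is 1 of these libraries, and its part in the result was measured by leaving it out: the differences were then 0.58 for ALDOC, 0.47 for PFKL, 0.43 for HK1 and -0.38 for PDK1 (adjusted p = 0.0861, 0.0589, 0.0711 and 0.0718).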

How the results depend on the processing

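At 24 h ALDOC, PFKFB4, PFKL, HK1 and PDK1 kept direction and call at 25 against 0 µg/ml under every alternative that could be fitted (PFKFB4 falls under the filter of 5). Counts of the 34 genes called moved as follows, with the share of all genes called in brackets. Lane 4 lacks 12 h and lane 5 lacks 24 h, so a lane alone covers only the times it holds. For 25 against 0 µg/ml over all times the main count of 6 was 0 in lane 4 alone (0.350%), 0 in lane 5 alone (0.0666%) and 0 without the 24 h libraries (0.383%). At 24 h the 11 became 7 with median centring (14.5%), 6 in lane 4 alone (5.84%) and 6 without the 12 h libraries (10.6%), and 8 rising with 4 falling after the GC and length correction (18.9%). For 25 against 12.5 µg/ml the 0 became 2 with the correction (1.45%). For 24 against 6 h over doses the 9 became 14 with quantile normalization (27.3%), 4 with lane as a covariate (19.3%), 4 in lane 4 alone (13.5%) and 15 with the correction (36.0%). At 12 against 6 h the correction gave 1 (7.55%). For 24 against 6 h at 25 µg/ml lane 4 alone gave 0 (0.624%). In untreated cells the 1 became 0 with no filter, no trend, lane as a covariate, lane 4 alone or no 12 h libraries, 2 with quantile normalization (2.97%) and 7 with the correction (9.02%), where the settings with 0 called 0.0666% to 2.26%. For the difference between 24 and 6 h the 4 became 0 in lane 4 alone (0.108%) and 0 without the 12 h libraries (0.0832%). The cause of these shifts was not tested. In the fits that left out 1 library, the share of all genes called moved too, as given above for several comparisons. The ranges below are thus no result about the 34 genes alone.

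Leaving out 1 library at a time gave 3 to 9 calls for 25 against 0 µg/ml over all times, 5 to 14 at 24 h, 0 to 5 for 12.5 against 0 µg/ml, 0 to 5 for 25 against 12.5 µg/ml, 7 to 14 for 24 against 6 h over doses, 7 to 14 at 25 µg/ml, 0 to 3 in untreated cells, 0 to 1 for 12 against 6 h and 0 to 9 for the difference between times.

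Signs turned at 25 against 0 µg/ml over all times. Lane 5 holds no 24 h library, so its values here are means of 6 and 12 h. PFKL, called in the full fit, was at 0.00, just below zero, without the 24 h libraries. Among values not called, TALDO1 was at -0.06 in lane 5 and -0.02 without the 24 h libraries; PGLS -0.01 with median centring, -0.18 in lane 5, -0.12 without the 24 h libraries and -0.02 to 0.05 with 1 library left out; HIF1A 0.02 in lane 5 and 0.01 without the 24 h libraries. The SLC16A3 to SLC16A1 log2 ratio, at 0.02, was -0.03 without replicate 2 of 25 µg/ml at 24 h, an alternative chosen after seeing the data; there 10 rather than 6 members lay below untreated at 24 h, since 1 library then decides. At 6 h the correction put PFKL at 0.02 and PDK1 at -0.05.

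Replicate numbers do not pair the libraries: of 28 correlations between same-numbered deviations, from -0.18 to 0.13, 2 exceeded 0.1. With the replicate number as a block the count in untreated cells was 0, where 1.95% of all genes were called. Over all times it was 5 (8.06% of all genes) and at 24 h 11 (15.2%). Of those 11, 10 were shared with the main fit, with PFKM gained (0.33, limma adjusted p = 0.0497) and PDHA1 lost (adjusted p = 0.0585). The block with the GC and length correction gave 7 rising and 5 falling at 24 h, against 8.16% and 10.2% of all genes. ENO1 was among those falling (-0.10, adjusted p = 0.0491). The other counts were 1 for 25 against 12.5 µg/ml (1.38%) and 15 for 24 against 6 h over doses (35.7%). They were 1 for 12 against 6 h (6.79%) and 7 in untreated cells (8.53%). The share of all genes called thus moved as well, so these counts are no result about the members alone. PFKL was at 0.02 and PDK1 at -0.05 at 6 h.

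SLC2A3, PFKM, PFKFB4 and SLC16A3 lie under 3 FPKM, where the added 1 FPKM weighs most, and absolute depth is unknown. Lane and time overlap in part: 12 and 6 h could be compared within lane 5, with 0 members and 0.150% of all genes called, and 24 and 12 h share no lane.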
